A study of Mus musculus with 2 samples.

Results

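The SOX family of transcription factors was measured in cells sorted from mouse embryos that carry the transgene Col2a1-Venus-Tg on the genetic background C57Bl/6. In these mice cartilage cells are marked by Venus, a variant of green fluorescent protein, through a reporter named for Col2a1, the gene of the main cartilage collagen. The sources used here do not give the regulatory fragment in the reporter, the age and number of the embryos, or the gates of the sort. Both groups come from transgenic embryos: 1 sample of Venus-positive cells and 1 sample of Venus-negative cells, each measured on 1 Affymetrix Mouse Genome array. The members are 10 genes, Sox4, Sox5, Sox6, Sox8, Sox9, Sox10, Sox11, Sox12, Sox13 and Sox18, taken through every probe set that the platform annotation pairs with that symbol alone. This gave 37 probe sets for 10 of the 18193 genes on the array. With 1 array per fraction there is no replicate error and no test between the fractions, so each difference describes these 2 arrays.

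SOX proteins bind DNA through an HMG box, and they are sorted into groups by the likeness of that box. In the SoxE group, SOX9 is required for cartilage to form and switches on the genes of cartilage matrix, SOX8 is its close relative, and SOX10 is best known from neural crest, glia and melanocytes. SOX5 and SOX6 of the SoxD group bind DNA beside SOX9 and raise its activity on matrix genes, while SOX13, of the same group, is known from lymphocytes and other tissues. SoxC proteins (SOX4, SOX11 and SOX12) act in progenitor cells of mesenchyme and nervous system, and SoxF proteins (SOX7, SOX17 and SOX18) in blood vessel lining and endoderm.

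The promoters of members on either side of the main contrast are shown because Sox8, Sox5 and Sox6 were higher in Venus-positive cells while Sox4 and Sox11 were not. The sequences are from RefSeq on build GRCm38.p6 and hold the 250 bases before an annotated start, 5′ to 3′ on the gene's own strand, which is the minus strand for each of these genes. Capitals mark the letters ACAAAG or ACAATG, 2 forms of the motif that SOX proteins bind, searched on both strands, where they read CTTTGT and CATTGT. The 2 motifs differ in 1 letter and cannot match at the same position.
Sox8: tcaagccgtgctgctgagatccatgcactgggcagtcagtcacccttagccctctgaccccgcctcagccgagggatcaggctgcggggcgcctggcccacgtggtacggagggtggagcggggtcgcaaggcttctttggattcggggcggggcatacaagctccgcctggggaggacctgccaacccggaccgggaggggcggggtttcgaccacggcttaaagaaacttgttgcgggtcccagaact
Sox5: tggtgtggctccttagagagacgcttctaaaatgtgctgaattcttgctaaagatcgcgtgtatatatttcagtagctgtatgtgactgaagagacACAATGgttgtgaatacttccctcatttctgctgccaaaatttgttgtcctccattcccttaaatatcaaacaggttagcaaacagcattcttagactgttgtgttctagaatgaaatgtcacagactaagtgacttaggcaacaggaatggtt
Sox6: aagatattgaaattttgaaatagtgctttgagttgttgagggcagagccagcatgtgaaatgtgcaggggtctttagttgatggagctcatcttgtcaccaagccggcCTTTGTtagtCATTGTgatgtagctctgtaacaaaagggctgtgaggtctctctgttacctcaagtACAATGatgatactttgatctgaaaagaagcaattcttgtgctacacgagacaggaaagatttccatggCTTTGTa
Sox4: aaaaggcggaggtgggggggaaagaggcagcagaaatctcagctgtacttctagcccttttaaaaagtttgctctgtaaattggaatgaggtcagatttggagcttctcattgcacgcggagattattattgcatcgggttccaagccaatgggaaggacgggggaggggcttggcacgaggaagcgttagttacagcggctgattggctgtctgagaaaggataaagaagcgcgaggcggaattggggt
Sox11: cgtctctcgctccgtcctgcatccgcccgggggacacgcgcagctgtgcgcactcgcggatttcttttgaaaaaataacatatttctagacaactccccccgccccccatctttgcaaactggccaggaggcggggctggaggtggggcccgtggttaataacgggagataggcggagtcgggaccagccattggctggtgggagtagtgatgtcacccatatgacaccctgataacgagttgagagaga
The windows lie at chr17:25570687-25570936 (Sox8), chr6:143947107-143947356 (Sox5), chr7:115995087-115995336 (Sox6), chr13:28953700-28953949 (Sox4) and chr12:27342719-27342968 (Sox11). RefSeq windows were at hand for 7 of the 10 members, with 6 for Sox6 and 1 for each of Sox4, Sox5, Sox8, Sox11, Sox12 and Sox13. The windows of Sox9, Sox10 and Sox18 were not used here. Of the 6 windows of Sox6, 5 held a motif, and the one printed holds 4 matches, the most of any member window. The window of Sox5 holds 1 match, and those of Sox8, Sox4, Sox11, Sox12 and Sox13 hold none. Over all 32851 promoter windows of this length, 25.24% held at least 1 match. The GC content was 65.6% for Sox8, 39.6% for Sox5, 41.6% for the printed Sox6 window, 50.8% for Sox4 and 58% for Sox11, against a median of 52.4% over all windows. A match is a description of the letters, and no binding was measured.

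Values are MAS5 signals, a linear brightness per probe set. A floor of 22.5, the median of all signals on both arrays without the array's control probe sets, stood in for detection calls. A probe set counted as measured when either array was at or above the floor. Where the dimmer side lay under it, only a minimum fold is known, and such folds carry the words "at least". Log2 ratios divide the Venus-positive by the Venus-negative signal. For counts of genes, the brightest measured probe set stood for the gene and a fixed size of 2-fold was used. The Venus-positive array was dimmer overall: the middle log2 ratio over the 11789 measured genes was -0.33, so ratios relative to that median gene are given as well. Col2a1, whose reporter defined the sort, had a signal of 606 in Venus-negative and 8443 in Venus-positive cells, which checks the labels.

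Of the 10 members 9 were measured, and 4 of these, Sox5, Sox6, Sox8 and Sox9, were at least 2-fold higher in Venus-positive cells. None of the 9 was 2-fold lower. The same sizes were passed by 2.79% (higher) and 11.6% (lower) of all 11789 measured genes. Relative to the median gene, 5 members were at least 2-fold higher, with Sox10 added, and none was lower, beside 5.06% and 6.45% of all genes. The share of higher genes among all genes past 2-fold moved from 19.4% to 44.0% between the scales. Of the 37 probe sets 29 were measured, 25 of them above the floor on both arrays, and 12 were at least 2-fold higher and none 2-fold lower, against 2.44% and 10.2% of the 21102 measured probe sets (4.63% and 5.32% relative to the median gene).

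**Figure D1:**
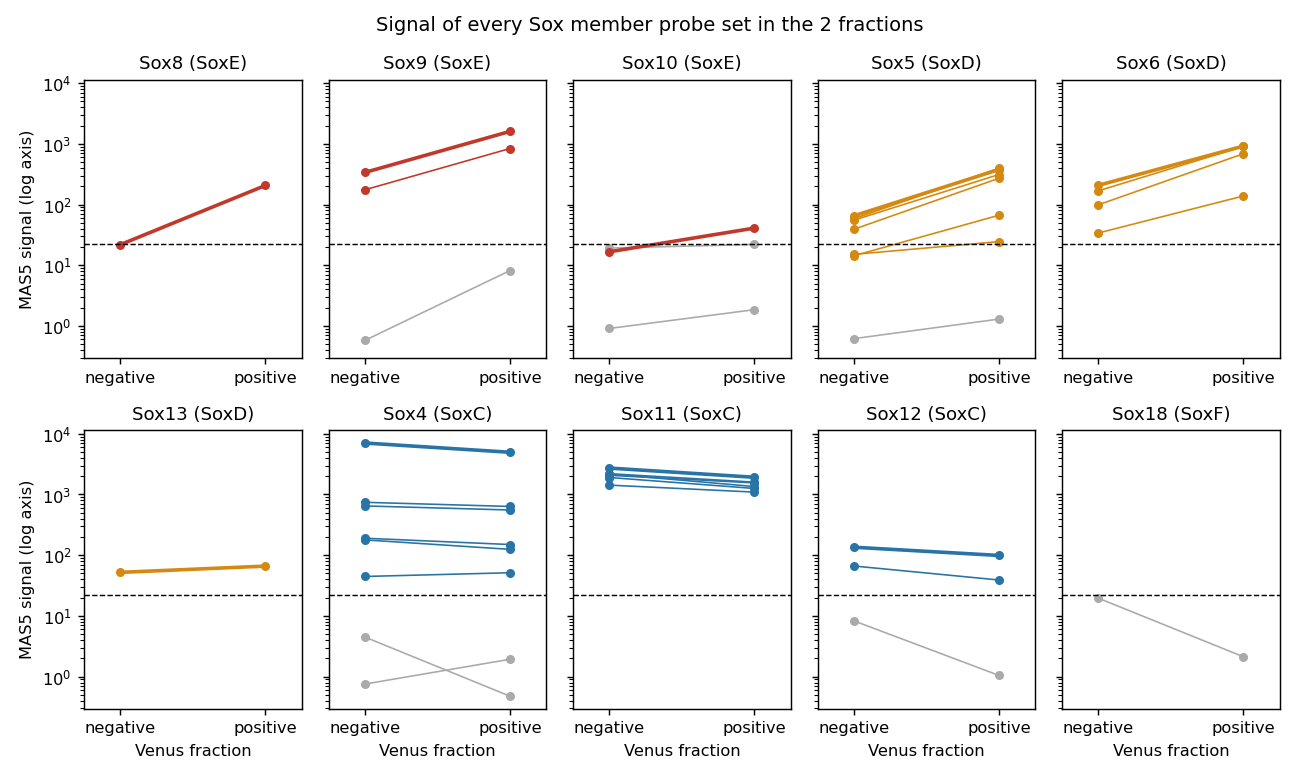
MAS5 signal (log axis) of each probe set of the 10 genes in Venus-negative and Venus-positive cells, 1 array each. Each line joins 1 probe set on the 2 arrays, the thick line is the brightest measured probe set, grey lines are below the floor of 22.5 (dashed) on both arrays, and the lines of Sox8, Sox9, Sox5 and Sox6 above the floor are higher on the positive side while those of Sox11 and Sox12 are higher on the negative side.

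Sox9 was the only SoxE gene with more than 1 measured probe set. Its brightest probe set (1451538_at) had a signal of 338 in Venus-negative and 1601 in Venus-positive cells. A second (1424950_at) had 175 and 837. Both were thus clearly brighter in Venus-positive cells, and the 2 log2 ratios, 2.24 and 2.26, lay closer together than is usual for probe sets of 1 gene, whose pooled standard deviation over all genes was 0.34. The third Sox9 probe set (1433889_at) was below the floor on both arrays, at 0.58 and 8.16, and gives no fold. Sox9 stood at rank 84 of the 11789 measured genes from the highest ratio down, within the top 0.71%.

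Sox8, the relative of Sox9, rested on 1 probe set (1435438_at) with a signal of 21.9 in Venus-negative and 206 in Venus-positive cells. The Venus-negative value lies just under the floor, so Sox8 was at least 9.16-fold higher, the largest ratio of any member, at rank 39. Because its Venus-positive signal is moderate, this size depends on the floor: when the 75th percentile of all signals served as floor, the log2 ratio was at least 0.85 in place of at least 3.20, so that a 2-fold difference could no longer be shown. Sox10 was dim. Its only measured probe set (1451689_a_at) had a signal of 16.7 in Venus-negative and 41.0 in Venus-positive cells, at least 1.82-fold higher. The other 2 Sox10 probe sets stayed below the floor on both arrays, at 19.2 and 22.0 for 1424985_a_at and at 0.91 and 1.86 for 1425369_a_at. This minimum does not reach 2-fold on the deposited scale and leaves the true size unknown. It was 2.29-fold relative to the median gene. When the 25th percentile served as floor, both signals of 1451689_a_at lay above that floor and its log2 ratio was 1.30. The signals of 1424985_a_at also lay above that floor and differed much less, so the size depends on the probe set.

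Genes known from the cells in which SOX10 acts differed in both directions. Of 13 genes of neural crest, glia and melanocytes 10 had a probe set of their own and 8 were measured, of which 3 were at least 2-fold lower (1 relative to the median gene) and 1 was higher, where 11.6% of all genes were lower (6.45% relative to the median gene). With so few genes, 1 of 8 on the relative scale is close to the share of all genes. Their summed signal was 706 in Venus-negative and 604 in Venus-positive cells, of which S100b alone gave 18.8 and 306. On its brightest probe set Ednrb, the endothelin receptor of neural crest, went from 210 in Venus-negative to 22.0 in Venus-positive cells, at least 9.32-fold lower there. The 3 measured Ednrb probe sets had log2 ratios from -3.22, a bound set by the floor, to -0.32, so the size depends on the probe set. Fabp7 went from 108 to 43.8 and Mitf, the melanocyte regulator, from 68.8 to 33.4. Foxd3, at 28.3 and 2.52, and Dct, at 38.7 and 3.45, were below the floor in Venus-positive cells. Erbb3 (186 and 164) and Mbp (48.2 and 28.1) were lower by less than 2-fold on their brightest probe sets. Erbb3 had a log2 ratio of 0.16 relative to the median gene, and another Mbp probe set had 0.60 on the deposited scale. The higher gene was S100b, a calcium-binding protein found in glia and also in cartilage, at 18.8 and 306, at least 13.6-fold higher.

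In the SoxD group, Sox5 was covered by 7 probe sets. The 4 that were above the floor on both arrays gave 65.3 and 377 (1455535_at), 58.3 and 397 (1423500_a_at), 55.4 and 312 (1432189_a_at), and 39.2 and 271 (1440827_x_at) in Venus-negative and Venus-positive cells. These 4 were 5.63- to 6.90-fold higher in Venus-positive cells. A further 2 started below the floor: 1452511_at had 14.4 and 66.6, at least 2.96-fold higher, and 1432190_at reached only 24.5 from 15.1, at least 1.09-fold. The last (1459261_at) stayed below the floor at 0.62 and 1.30. The low values among the Sox5 probe sets are therefore those of dim probe sets, for which only a bound is known. The probe set standing for Sox5 had a log2 ratio of 2.53, rank 66.

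All 4 probe sets of Sox6 were above the floor on both arrays. Their signals in Venus-negative and Venus-positive cells were 208 and 918 (1427677_a_at), 169 and 906 (1447655_x_at), 99.2 and 687 (1434918_at), and 34.0 and 138 (1426018_a_at). Each was higher in Venus-positive cells, by 4.07- to 6.92-fold, with a standard deviation of 0.34 between the log2 ratios. The brightest gave 2.15 on the log2 scale, rank 95. The probe set ranges of Sox5 (2.49 to 2.79 without the dim ones) and Sox6 (2.02 to 2.79) overlap, and the Sox9 values of 2.24 and 2.26 fall inside the Sox6 range, so the order of Sox5, Sox9 and Sox6 is not settled by their probe sets.

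Sox13 did not follow its SoxD relatives. Its 1 probe set (1450191_a_at) had a signal of 52.2 in Venus-negative and 66.1 in Venus-positive cells, 1.27-fold higher and 1.60-fold relative to the median gene. This put Sox13 at rank 1181, and it was under 2-fold in each of the 8 alternatives that measured it.

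**Figure D2:**
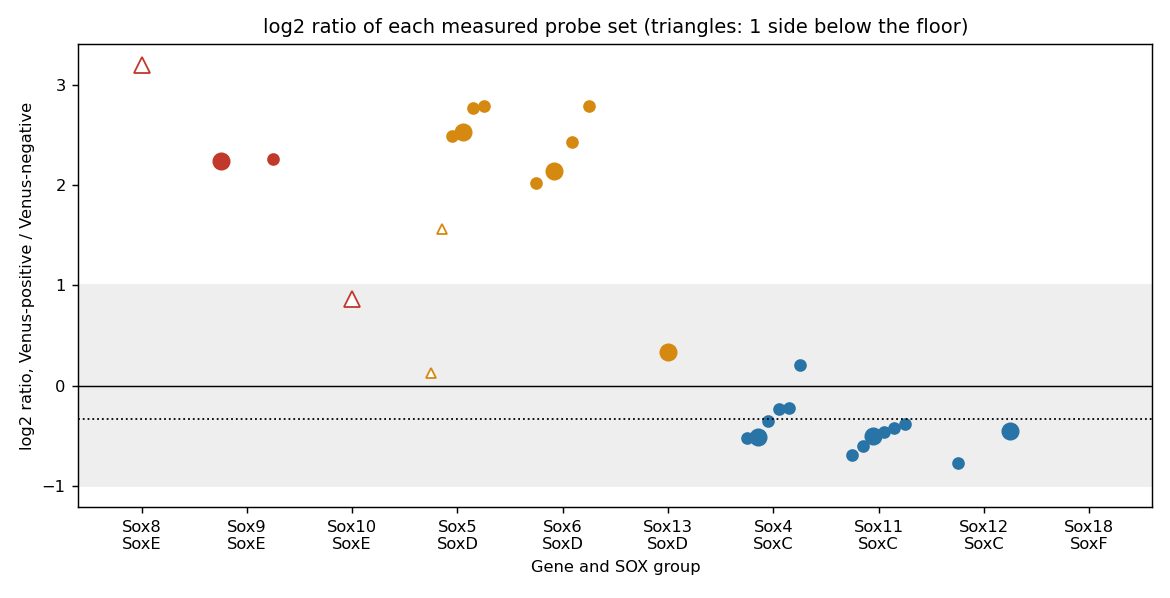
log2 ratio (Venus-positive divided by Venus-negative signal) of each measured probe set of the Sox genes, large symbols for the probe set standing for the gene, open triangles for lower bounds. The grey band spans less than 2-fold and the dotted line is the median gene at -0.33; SoxC points lie between -0.76 and 0.20, whereas Sox9 and Sox6 points all exceed 2.

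On their brightest probe sets SoxC genes had ratios close to each other and near or slightly below that of the typical gene. Sox4 had 6 measured probe sets of 8, and the brightest (1433575_at) had a signal of 7038 in Venus-negative and 4959 in Venus-positive cells. The next were 743 and 635 (1419156_at), 648 and 555 (1419155_a_at), 190.4 and 149.9 (1449370_at), and 179 and 125 (1419157_at). These 5 were slightly lower in Venus-positive cells, by 1.43-fold at most, and a dim probe set (1455867_at) went the other way, from 44.7 to 51.4. The remaining 2 Sox4 probe sets were below the floor on both arrays.

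Sox11 gave the same picture with 6 measured probe sets of 6. Its signals ran from 1426 (1453002_at) to 2720 (1453125_at) in Venus-negative cells, and the same probe sets had 1094 and 1921 in Venus-positive cells. Each of the 6 was lower in Venus-positive cells, by 1.30- to 1.61-fold, with a standard deviation of 0.12 between the log2 ratios. Sox12 went from 135 to 99.1 (1455562_at) and from 66.4 to 39.1 (1439754_at), 1.37- and 1.70-fold lower, and the remaining Sox12 probe set was below the floor on both arrays.

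On their brightest probe sets the log2 ratios of Sox4, Sox11 and Sox12 were -0.51, -0.50 and -0.45, within 0.056 of each other. Relative to the median gene they were -0.17, -0.17 and -0.12, with 11 of the 14 measured SoxC probe sets below it. Against the median of genes of like brightness (all genes in 5 bins of signal, added after the values were seen) they were -0.24, -0.24 and -0.11. These distances are under 0.34, the pooled standard deviation between probe sets of 1 gene, but those of Sox4 and Sox11 to genes of like brightness exceed its median over genes, 0.21. All 6 Sox11 probe sets lay below the median gene, with a standard deviation of 0.12 between them, whereas 3 of the 6 measured Sox4 probe sets lay above it. A spread between probe sets does not measure the spread between samples. The ratio of each of the 3 genes stayed below 0 and under 2-fold in all 9 alternatives, with Sox12 closest to 0 at -0.09 after quantile normalization. With the mean over probe sets the ratios lay further apart, at -0.27 for Sox4, -0.51 for Sox11 and -0.61 for Sox12. Of the genes that SoxC proteins are known to control, Tead2 (820 in Venus-negative and 537 in Venus-positive cells) and Dcx (90.2 and 69.3) were lower in Venus-positive cells by less than 2-fold on their brightest probe sets. Relative to the median gene the log2 ratios of Tead2 and Dcx were -0.28 and -0.05. Tubb3 (34.1 and 10.5) was at least 1.51-fold lower, a minimum set by the floor, and with the floor at the 25th percentile it was past 2-fold.

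Set side by side, the median log2 ratio was 2.24 over the SoxE genes, 2.15 over the SoxD genes and -0.50 over the SoxC genes, against -0.33 over all genes. The SoxE median exceeded the SoxC median by 2.74 and the SoxD median exceeded it by 2.65, while SoxE and SoxD differed by 0.10, less than the spread between probe sets. With 3 genes in each group on 2 arrays, these are descriptions with no test. The groups are not uniform: Sox13 (0.34) lies between its own relatives and the SoxC genes, and for Sox10 only a minimum (0.86) is known with the floor used here. By probe set, all 4 measured SoxE and all 11 measured SoxD probe sets were above 0, with 3 and 9 of them at least 2-fold higher, while 13 of 14 SoxC probe sets were below 0. The measured Sox8 and Sox10 probe sets and the dim Sox5 ones (1432190_at and 1452511_at) passed the floor through Venus-positive cells alone. Their sign was therefore fixed by that filter. Among measured probe sets the lowest SoxE value (0.86, a bound) lay above the highest SoxC value (0.20). This leaves out a Sox10 probe set that differed little between the arrays (1424985_a_at, 19.2 and 22.0) and was under the floor on both. The lowest SoxD value (0.12, a minimum from a dim Sox5 probe set) is not shown to lie above the highest SoxC value.

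**Figure D3:**
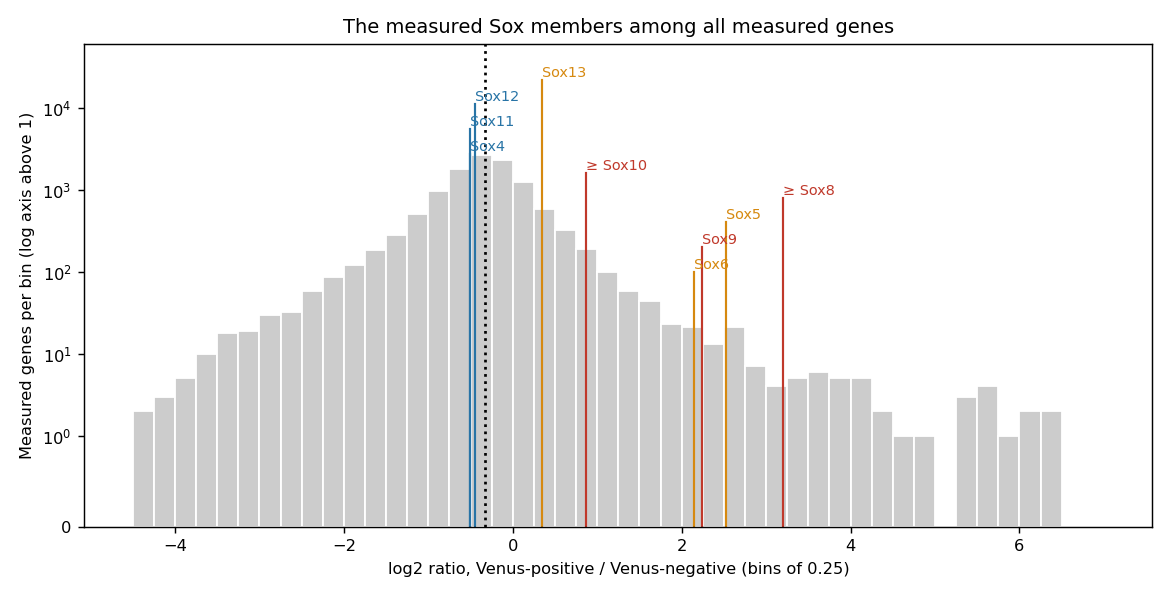
Number of measured genes per bin of log2 ratio (grey, 11789 genes, log axis above 1), with vertical lines at the ratios of the 9 measured Sox members; line height only separates the labels. Sox4, Sox11 and Sox12 stand at the bulk of genes beside the dotted median of -0.33, and Sox6, Sox9, Sox5 and Sox8 stand in the sparse right tail at 2.15 to at least 3.20.

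Sox18, the SoxF member, did not reach the floor on either array. Its 1 probe set (1449135_at) had a signal of 19.6 in Venus-negative and 2.13 in Venus-positive cells, so no fold is given and its absence is not shown. Its SoxF relatives were dim too. Sox7 (1416564_at) had 54.4 and 19.4, at least 2.42-fold lower on the Venus-positive array, while its second probe set (1432495_at) was below the floor on both arrays, at 0.32 and 7.06. Sox17 had 30.2 and 1.38 (1421657_a_at) and 26.9 and 5.26 (1429177_x_at), lower by at least 1.34-fold on the first. The measured probe sets of Sox7 and Sox17 passed the floor through Venus-negative cells alone, so their direction was fixed by that filter.

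Markers of blood vessel lining, where SoxF factors act, were lower as well. Of 12 endothelial genes 11 were measured, each of the 11 had its lower signal in Venus-positive cells, and 10 passed 2-fold, beside 11.6% of all genes. Relative to the median gene 9 were 2-fold lower. Their summed signal was 1088 in Venus-negative and 258 in Venus-positive cells, and 5 of the 11, including Pecam1 and Tek, were below the floor in Venus-positive cells. Plvap was at 153 and 22.3, Emcn at 162 and 30.2, Cdh5 (VE-cadherin) at 137 and 28.1 and Tek (the angiopoietin receptor) at 103 and 12.4. Their part in the SoxF values was not tested. In such sorted bulk samples fewer cells of a type and less RNA per cell cannot be told apart.

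Among the other 10 Sox genes on the array none was at least 2-fold higher with the floor used here, and 1, Sox3 (signals 2.63 and 16.1), passed that size when the 25th percentile served as floor. Only 4 of them were measured, Sox2, Sox7, Sox17 and Sox21, each below the floor in Venus-positive cells. They passed the floor through Venus-negative cells alone, so their direction was fixed by that filter and is no result. The median gene was also lower in Venus-positive cells, at a log2 ratio of -0.33. Of the 4 measured, 2 were at least 2-fold lower, Sox7 and Sox21, beside 11.6% of all genes. Sox2, a factor of neural progenitors, was at 41.8 and 3.63, at least 1.86-fold lower in the Venus-positive fraction. Sox21, of the neighbouring SoxB group, was at 46.7 and 9.01, at least 2.08-fold lower. Relative to the median gene these minima were 1.92-fold for Sox7 and 1.65-fold for Sox21, under the 2-fold size that 6.45% of all genes passed. The 16 probe sets of these genes were otherwise below the floor, with Sry, Sox1, Sox3, Sox14, Sox15 and Sox30 not measured, and so were the probe sets of the noncoding genes Sox2ot and Sox6os.

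Neuronal markers, from the tissue in which Sox2, Sox21, Sox4 and Sox11 are also known, were lower: 6 of 7 measured genes passed 2-fold (5 relative to the median gene), beside 11.6% and 6.45% of all genes, and their summed signal was 900.3 in Venus-negative and 202 in Venus-positive cells. Nefl was at 223 and 41.7, Nefm at 235 and 46.2, Gap43 at 183 and 38.1 and Stmn2 at 112 and 34.0. Sox6 is also known to act in red cells and in muscle fibres. Of 8 measured erythroid genes 6 were at least 2-fold lower on both scales, beside 11.6% and 6.45% of all genes, with Slc4a1 at 867 and 49.2, Alas2 at 444 and 38.8, Hbb-bh1 at 2709 and 253 and Hba-x at 7742 and 1310. The brightest, the embryonic globin gene Hbb-y, was at 13190 and 11912, and the summed signal of the list was 25135 in Venus-negative and 13590.2 in Venus-positive cells. Of 8 skeletal muscle genes all 8 were at least 2-fold lower (7 relative to the median gene), beside the same shares of all genes, and their summed signal was 4161 and 358, with Tnnt1 at 589 and 36.6, Myog at 645 and 40.9, Actc1 at 2268 and 164, and Myh3 at 249 and 22.5. Sox6 was higher in Venus-positive cells while most genes of both lists were lower there. The part of red cells and muscle in the Sox6 values was not tested. No lead probe set of these lists was at 0 on either array.

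**Figure D4:**
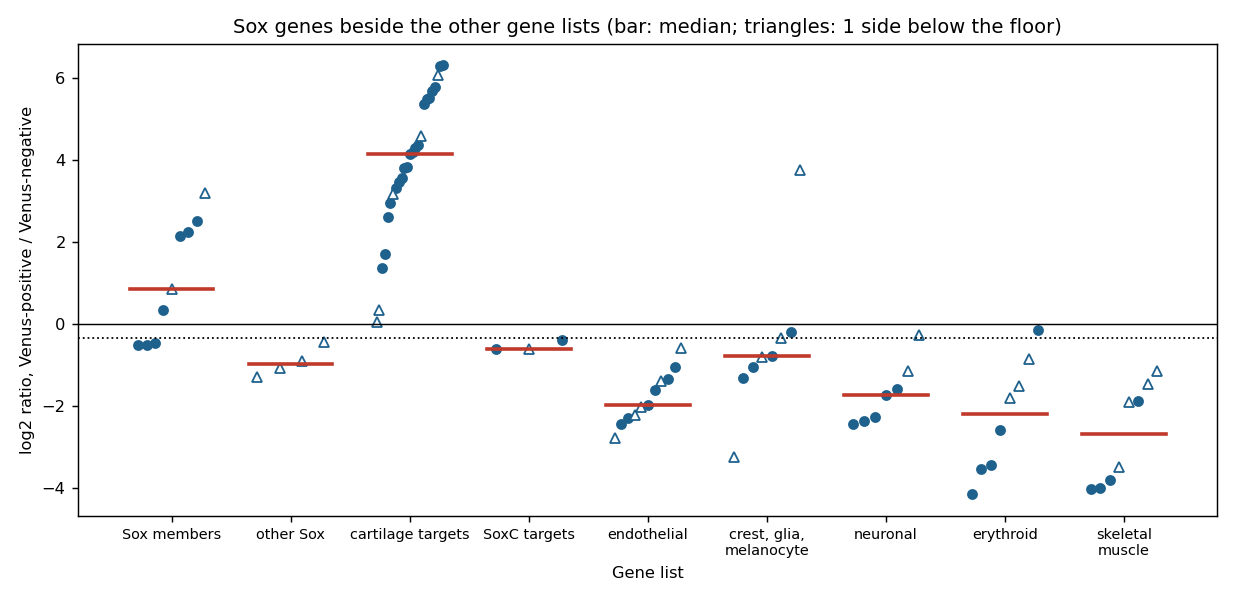
log2 ratio (Venus-positive divided by Venus-negative signal) of the measured Sox members, the other measured Sox genes and 7 further lists, 1 point per gene, open triangles where 1 side is below the floor, red bars for medians and a dotted line for the median gene. The cartilage targets have a median of 4.15, the Sox members spread from -0.51 to at least 3.20, and the lists of other cell types have medians from -0.78 to -2.68.

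Genes that SOX9, SOX5 and SOX6 are known to activate in cartilage were much higher in Venus-positive cells. Of 25 such genes all 25 were measured and 23 were at least 2-fold higher on both scales, beside 2.79% of all genes, with a median log2 ratio of 4.15. Their summed signal was 5970.1 in Venus-negative and 82168 in Venus-positive cells. The list holds Col2a1, and its other members are part of the chondrocyte state by which the sort was defined, so the count checks the label rather than adding to it. Matn1 (matrilin 1) was at 56.3 and 4478, Comp at 27.5 and 2159, Matn3 at 20.3 and 1533 and Acan (aggrecan) at 62.6 and 3461.

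Of these 25 genes 21 had a larger log2 ratio than Sox9. The closest to Sox9, by the distance of log2 ratios over the 2 arrays, were Col9a1 (2.63, distance 0.39), Col27a1 (1.72, distance 0.52) and Chst11 (2.96, distance 0.72). Col9a1 encodes a chain of collagen IX, and Chst11 a sulfotransferase of chondroitin. A second probe set of Col9a1 gave 4.31, so nearness to Sox9 depends on the probe set. The 2 genes for which 2-fold could not be shown were dim, and their folds are minima set by the floor: Ucma was at 6.83 and 28.6, and Nkx3-2, a homeobox factor that acts together with Sox9 in early cartilage, was at 10.5 and 23.3. With the floor at the 25th percentile all 25 genes were at least 2-fold higher.

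The contrast between Sox groups held under other ways of scaling the arrays and treating dim signals. The log2 ratio of Sox9 ran from 2.19 to 2.57 over the 9 alternatives and that of Sox6 from 2.06 to 2.48, and both were at least 2-fold higher in each. Sox5 ran from 1.80 to 2.88, lowest with the highest floor, and was 2.05 when its 6 measured probe sets, the dim ones included, were averaged. Values for Sox10, minima wherever its Venus-negative signal lay under the floor, were between 0.80 and 1.30 in the 8 alternatives that measured it. The value of 1.30, with the floor at the 25th percentile, is not a minimum. It is that of the brightest Sox10 probe set, and a second above that floor differed much less between the arrays.

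**Figure D5:**
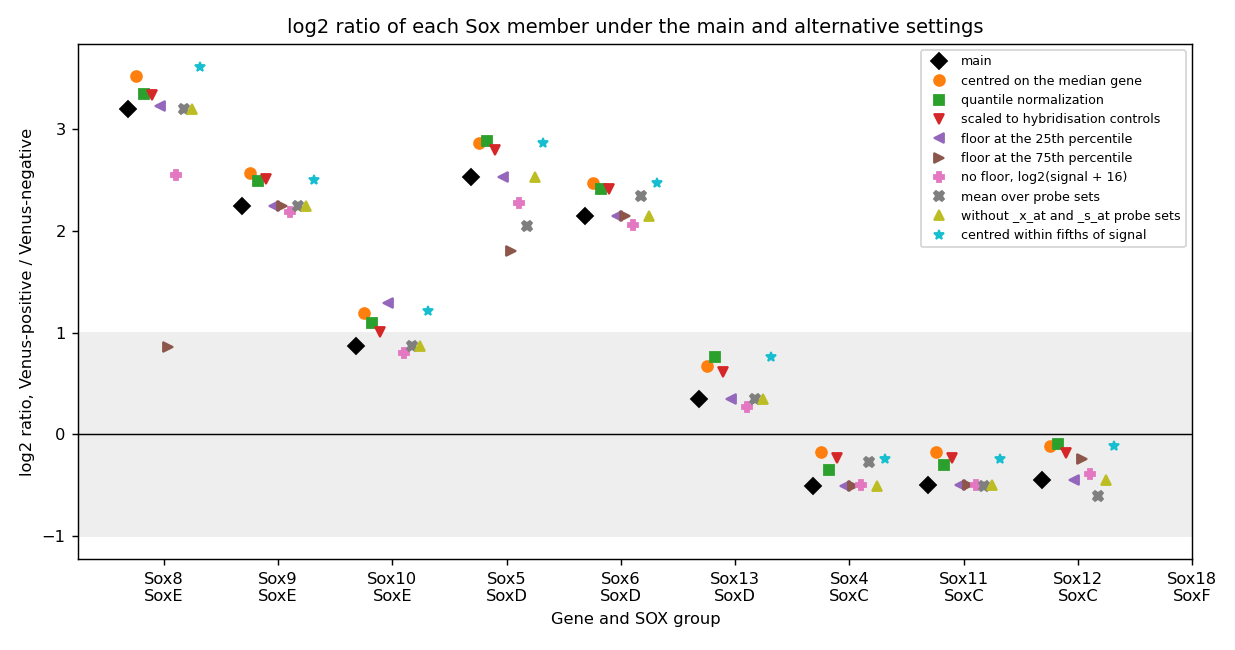
log2 ratio (Venus-positive divided by Venus-negative signal) of each Sox gene under the reported setting (black diamonds, labelled main) and 9 alternatives (coloured symbols), with a grey band for less than 2-fold. Sox9, Sox6 and Sox5 stay above the band, Sox4, Sox11 and Sox12 stay inside it below 0, the minimum for Sox8 drops into it under the highest floor, and Sox18, unmeasured in the reported setting, has no symbol.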

How the data were processed

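Total RNA (100 ng per sample) of 1 Venus-positive and 1 Venus-negative sample was hybridised to 1-colour arrays, and groups follow the cell type in the labels. The deposited values are linear intensities per probe set, which the authors made with MAS5, as the submitters' processing notes say. The sources used here give no version, scaling target or detection calls. The number of arrays limits the precision, and nothing says how many embryos each sample holds.

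The 64 control probe sets were set aside. Of the others, 34945 had 1 gene symbol in the platform annotation, 932 several and 9160 none, and only the first kind was used. The gene identifiers of all 10 members matched their symbols in RefSeq. Trimmed mean signals (2% at each end) were 133 for Venus-negative and 109 for Venus-positive cells, and 52.7% and 47.3% of probe sets reached the floor, which was applied before log2. A gene was represented by its brightest measured probe set (mean log2 signal over both arrays). Python 3.11.15 and pandas 2.3.3 were used, and the counting was tested on simulated data.

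The members and lists were chosen with earlier results of these data known. Named were all Sox genes, the 4 genes per list farthest from a log2 ratio of 0, the 3 cartilage targets closest to Sox9 and those not 2-fold higher. Foxd3, Dct, Erbb3, Mbp, Pecam1, Hbb-y and Col2a1 were added after seeing their values. Alternatives were centring on the median gene, quantile normalization, scaling to the hybridisation controls, floors at the 25th and 75th percentiles, log2(signal + 16) without a floor, the mean over probe sets, and omission of the probe set types _x_at and _s_at, whose probes may bind further transcripts. Centring within 5 bins of signal was added after seeing the data.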

Additional observations from a re-analysis of the deposited data

How the results depend on the processing

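No paired analysis was possible because each fraction had 1 array. Of 79 log2 ratios of single members under the 9 alternatives, 68 moved by less than 0.34, the spread between probe sets of 1 gene, and 11 moved further, none to the other side of 0. Part of this count was fixed by the settings: centring moves each gene by 0.33, and omitting _x_at and _s_at probe sets changed no member's value. The mean over probe sets cannot change Sox8, Sox10 or Sox13, each with 1 measured probe set. The count of members at least 2-fold higher was 3 when the 75th percentile served as floor, where the minimum for Sox8 was under 2-fold and Sox10 and Sox13 were not measured, and 4 or 5 elsewhere. With the floor at the 25th percentile 1 member, Sox18, was at least 2-fold lower (log2 ratio at most -1.91), in place of 0. With that 75th percentile floor the SoxE median was 1.55, over Sox8 and Sox9 alone. The SoxD median ran from 1.97 to 2.48 and the SoxC median from -0.51 to -0.17. Counts over all genes depended on scale and floor: 181 to 672 genes were at least 2-fold higher against 329 as reported, and 475 to 2534 lower against 1368. With the 75th percentile floor, 0 endothelial genes, 0 genes of the crest, glia and melanocyte list, 1 neuronal gene and 4 skeletal muscle genes were shown to be 2-fold lower, since a higher floor lowers the minimum fold of a dim gene. With the floor at the 25th percentile 1 SoxC target and 25 cartilage targets, in place of 0 and 23, were past 2-fold. Other Sox genes at least 2-fold lower numbered 0 to 4, against 2 as reported, and those higher 0 or 1, against 0. Hybridisation controls had a median log2 ratio of -0.27, close to the -0.33 of all genes.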
